A study of Oryza sativa with 2 samples.

Results

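The genes described here are 7 rice genes of the circadian clock and of flowering: CCA1, PRR1, PRR37, PRR73, Hd3a, DTH8 and MADS4. They were chosen by name, through the symbol or synonym of the single gene to which the platform annotation assigns a probe set, with a leading Os dropped. Each name led to 1 gene, so the 7 genes stand among 17905 single genes on the array, and they were read by 10 probe sets. Leaves of rice recombinant inbred lines, which are lines fixed by inbreeding from a cross, were measured on single-colour oligonucleotide arrays. The lines labelled F9Y had yellow leaf tips in the vegetative stage and are described as mutant. The lines labelled F9G were normal green. The study characterizes SA0420, a rice mutant that senesces early, and asked here which transcripts differ when leaf tips turn yellow. The sources used here do not give the parents of the lines, how many lines or plants went into each RNA, or the hour of harvest.

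The circadian clock of plants is a loop of transcription factors that repress each other at different hours of the day. In Arabidopsis, CCA1 and its relative LHY are made around dawn, the pseudo-response regulators (PRR) follow one another through the day, and TOC1, the counterpart of rice PRR1, closes the cycle in the evening. The clock and the phytochromes together set when the rice leaf makes the florigen Hd3a, a small mobile protein that travels from the leaf to the shoot apex and starts flowering there. PRR37 and DTH8 delay flowering in long days by acting upstream of Hd3a. MADS4 has a later role: it is a class B floral organ gene of the PISTILLATA type, and its place is the developing flower rather than the leaf.

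Each group had 1 array, so there was no replicate and no test, and every difference below compares these arrays rather than the conditions. The values are deposited signal intensities on a linear scale, and the number of arrays limits the precision. Differences are log2 of signal plus a pseudocount of 22.6, yellow leaf tip minus green, centred on the median of the rice probe sets whose mean signal was at least 86.2. A gene is called higher or lower where this difference is at least 1 in size, which is a fold of 2. The only spread these data offer is that between probe sets of the same gene, which ran from 0.72 (SD) in the dimmest class of 5 equal signal classes, class 1, to 0.34 in the brightest, class 5. It covers disagreement between probes, not between plants.

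As a check of the tissue, 9 leaf markers with a probe set were read (Rubisco, photosystem, photorespiration and chlorophyll synthesis genes). All 9 were far above the bacterial and reporter controls described below on both arrays. Their summed signal was 193151 in yellow leaf tips against 253663 in green leaves. The 5 seed markers summed to 576 and 948, with each gene taken as the mean over all its probe sets, kept or not. Of the 2 that passed the filter, GLUB-4, a glutelin gene, read 22.3 and 186 (-2.16). GLUA-2 read 822 and 1186 (-0.47) on its 1 kept probe set of 2, and the probe set left out lowers its part of the sum. The 42 bacterial control probe sets that have no target in the sample read 1.60 to 56.9 with the yellow leaf tip RNA and 1.73 to 97.6 with the green RNA, which is used below as the range of background. The 64 reporter gene controls reached higher, up to 153 and 241, with 9 and 5 of them above the highest bacterial control. The 27 spiked hybridization controls had a median difference of 0.19 after centring, and 24 of them were above 0. The ratio of signal at the 3′ end to the 5′ end, a measure of RNA and labelling quality, did not point one way: for GAPDH it was 2.14 with yellow leaf tips and 2.40 with green leaves, for cyclophilin 2.74 and 2.53, and for actin 2.48 and 2.37.

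In yellow leaf tips, the florigen gene Hd3a and its upstream repressor DTH8 were lower by at least 2-fold in the main setting. The PRR genes PRR37 and PRR73 were lower by less than 2-fold, CCA1 and PRR1 were nearly level, and MADS4 was higher. DTH8 reached 2-fold in all 11 settings that measured it, Hd3a in 8 of 10 and MADS4 in 9 of 10. With the highest reporter control as the floor, the plain ratio of Hd3a, green over yellow, was 1.06. With that floor no higher level can be read for MADS4. DTH8 and Hd3a were the 2 genes called lower and MADS4 the 1 gene called higher. Over all 14693 genes measured, 3.17% were called lower and 5.57% higher. Over the 28597 rice probe sets kept, 6.28% were called lower and 5.82% higher. All 7 genes had at least 1 probe set above the filter on mean signal, and 9 of their 10 probe sets passed. Hd3a passed it only through its green signal and MADS4 only through its yellow leaf tip signal, so both had to differ once kept, and the count of calls among the 7 is a description with no weight of its own. In leaf RNA, fewer cells of a type and less RNA per cell cannot be told apart. The arrays also differ in line and in leaf colour. The yellow sample is titled yellow leaves but described as yellow leaf tip, so the leaf part may differ too. Line, colour and leaf part cannot be told apart in any difference given here.

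**Figure D1:**
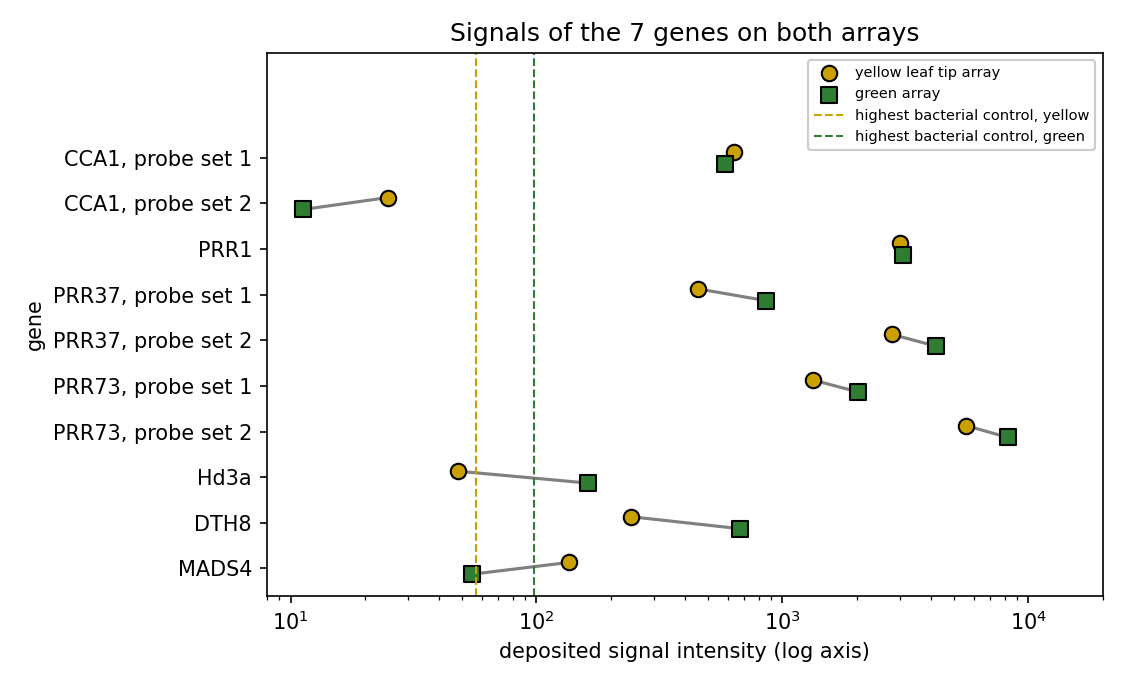
Deposited signal intensity (log axis) of each probe set of the 7 genes with yellow leaf tips (circles) and with green leaves (squares); dashed lines mark the highest bacterial control without a target on each array, 56.9 and 97.6. Hd3a in yellow leaf tips, MADS4 in green leaves and probe set 2 of CCA1 on both arrays lie below these lines.

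CCA1 (LOC4344703), listed in the gene table also as LHY and COC1, is a MYB-type factor of the morning part of the clock. Its bright probe set read 636 in yellow leaf tips against 586 in green leaves, a difference of 0.16. The other probe set of the gene read 24.9 and 11.3, both no higher than bacterial controls, and did not pass the filter. The bright probe set therefore carries the value of CCA1, and its difference is smaller than the spread between probe sets at that signal level (SD 0.47). In the same signal class, 41.1% of probe sets were at least as high.

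PRR1 (LOC4330000), the rice counterpart of the evening gene TOC1, had the most even signals of the 7. Its only probe set read 3018 in yellow leaf tips against 3096 in green leaves. The difference was 0.01 after centring, so small that its sign changed under other scalings and no direction can be given. CCA1 and PRR1, which in Arabidopsis peak at opposite times of day, thus differed from each other by 0.15 in their log2 differences, less than the spread between probe sets of 1 gene.

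PRR37 (LOC4344399), also listed as Hd2 and DTH7, is a pseudo-response regulator that represses flowering in long days. Its dimmer probe set read 452 in yellow leaf tips against 857 in green leaves, a difference of -0.84. Its brighter probe set read 2779 and 4223, a difference of -0.55. Both probe sets were lower in yellow leaf tips, and they disagreed by 0.29, less than the SD of 0.39 between probe sets of a gene of that signal level. The mean over both was -0.70, or 1.62-fold lower, under the 2-fold rule. In their signal classes, 5.10% and 10.2% of probe sets were at least as low.

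PRR73 (LOC4332464), the close relative of PRR37, was lower on both of its probe sets too. The dimmer of them read 1327 in yellow leaf tips against 2023 in green leaves, a difference of -0.55. The brighter read 5567 and 8244, a difference of -0.51. The probe sets differed by only 0.04, and their mean of -0.53 was a 1.45-fold lower signal. The gap between PRR37 and PRR73 was 0.16, which is within the spread between probe sets, so the order of these genes is not settled. Of the probe sets in their signal classes, 9.35% and 11.7% were at least as low, so a difference of this size was not rare on these arrays.

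Hd3a (LOC4340185) encodes the florigen. Its only probe set read 48.0 in yellow leaf tips against 161 in green leaves. The yellow leaf tip signal was no higher than bacterial controls, and the green signal exceeded all of them and all but 1 of the 64 reporter controls. The log2 difference was -1.33, or 2.52-fold lower with the pseudocount, and the plain signal was 3.37-fold higher in green leaves. With the highest bacterial control of the yellow leaf tip array in place of the yellow signal, the plain ratio was 2.84, and with the highest reporter control it was 1.06, so no firm lower bound can be given. In this dimmest signal class, 10.2% of probe sets were at least as low, and the spread between probe sets was 0.72.

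DTH8 (LOC4344784), also listed as Ghd8, Hd5 and NF-YB11, encodes a B subunit of the trimeric nuclear factor Y and represses flowering in long days. Its only probe set read 243 in yellow leaf tips against 670 in green leaves, both above every bacterial and reporter control of their arrays. The difference was -1.33, or 2.52-fold lower, and the plain ratio was 2.75. This was 2.86 times the spread between probe sets at its signal level, the most of the 7 genes, and 1.29% of the probe sets in its class were at least as low.

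MADS4 (LOC4338842) went the other way. Its only probe set read 136 in yellow leaf tips against 54.5 in green leaves, and here the green signal was the one no higher than bacterial controls. The difference was 1.09, or 2.13-fold higher, and the plain ratio was 2.49. With the highest bacterial control of the green array in place of the green signal, that ratio was 1.39. The highest reporter controls, 153 and 241, exceeded the signal of MADS4 on both arrays, so with that floor no higher level can be read. In its signal class, 8.24% of probe sets were at least as high, and the difference was 1.52 times the spread between probe sets.

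**Figure D2:**
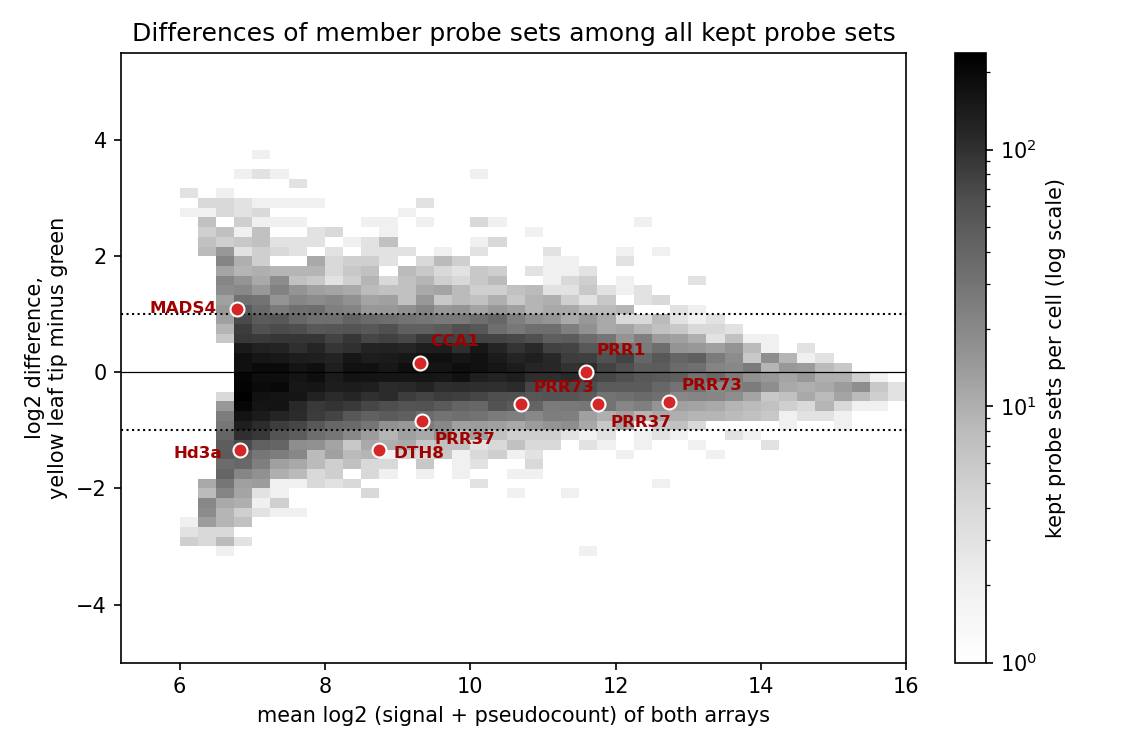
Log2 difference, yellow leaf tip minus green, against the mean log2 of signal plus pseudocount of both arrays, for all 28597 kept rice probe sets (grey, darker where more probe sets fall) and the 9 kept probe sets of the 7 genes (red); dotted lines mark 2-fold. Hd3a and MADS4 lie at the dim end, where the cloud is widest. DTH8, at a difference of -1.33, lies inside the lower part of the cloud. In its signal class, 1.29% of probe sets were at least as low.

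Under every scaling and filter tried, DTH8 stayed lower by at least 2-fold, between -1.41 and -1.15. Hd3a ran from -1.70 without a pseudocount to -0.83 with a pseudocount at the median signal, and was also under 2-fold, at -0.92, after a loess on signal level. MADS4 ran from 0.69 with the larger pseudocount to 1.54 after loess. PRR37 kept between -0.77 and -0.55 and PRR73 between -0.60 and -0.50, all below 0. CCA1 ran from 0.08 to 0.39, the latter without a filter, where its probe set at background counts too. Its main value of 0.16 was below the median of 0.19 of the spiked hybridization controls, so no direction is given for it. PRR1 was below 0 in 4 of its 11 settings.

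**Figure D3:**
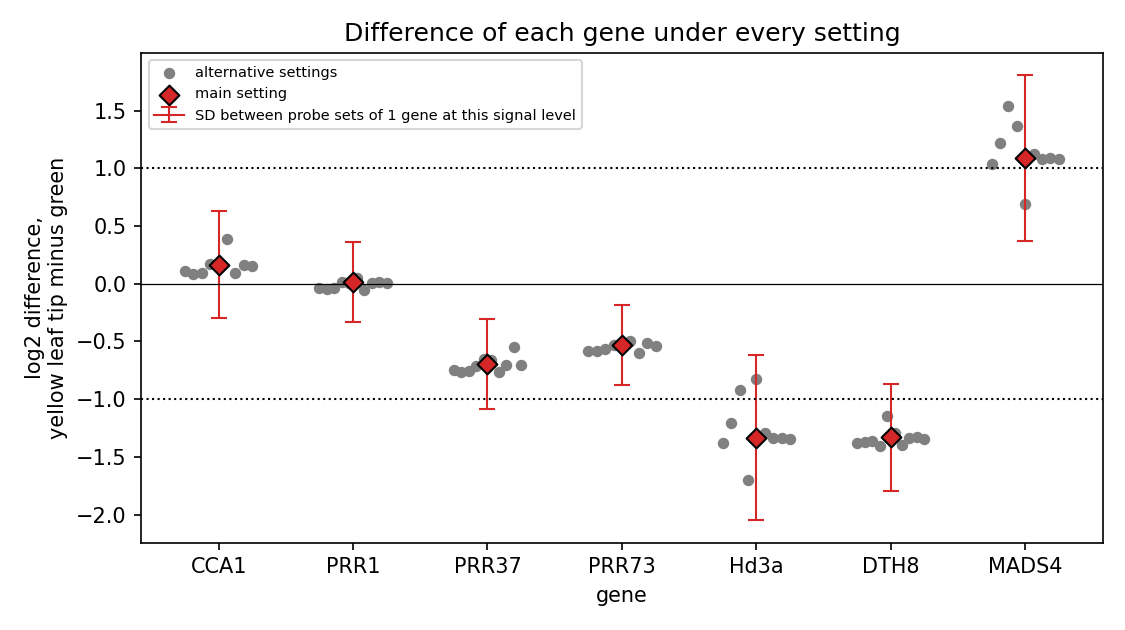
Log2 difference, yellow leaf tip minus green, of each of the 7 genes in the main setting (diamonds, with the SD between probe sets of 1 gene at that signal level as bars) and in each alternative that measured it (grey points). DTH8 lies below the dotted 2-fold line in all settings, between -1.41 and -1.15, while Hd3a and MADS4 each cross their line.

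The other genes of the clock were bright on both arrays and within 2-fold. GI, which controls the output of the clock to flowering, read 12569 in yellow leaf tips against 15525 in green leaves, a difference of -0.25. PCL1, the rice relative of the evening complex gene LUX, read 25274 and 33633, a difference of -0.36. PRR95, another PRR gene, read 11698 and 12150, a difference of -0.005 whose sign changed after quantile normalization or loess. None of the 3 was called, under any setting. ELF3 was not analysed here, nor were PRR59 and FKF1 under those names.

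Among 4 genes of light perception, the phytochromes did not move alike. PHYB read 3678 in yellow leaf tips against 6094 in green leaves (-0.68), and PHYC 1560 and 2547 (-0.65). PHYA had a difference of 0.23 on 2 probe sets. SE5, a heme oxygenase needed to make the light-absorbing group of all phytochromes, read 4784 and 3533 (0.48). Thus PHYB and PHYC were lower by about as much as PRR37 and PRR73, all under 2-fold.

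Of the flowering-time genes other than the 7, 23 were matched by name, 21 had a probe set, 18 passed the filter, and none was called. Their median was -0.10, against 0.08 over all genes measured, and 11 of the 18 were below 0, as were 6389 of the 14693 genes measured. Hd1, the rice counterpart of Arabidopsis CONSTANS and a regulator of Hd3a, read 188 in yellow leaf tips against 178 in green leaves (0.12). Its green signal was below the highest reporter control of that array, 241. The yellow leaf tip signal of Hd3a was at background, so the differences of Hd1 and Hd3a are not compared. Ehd4, an activator upstream of florigen, had 0.52, and Ehd3 had 0.12 on 3 probe sets that disagreed by 0.66. Hd16, a casein kinase that modifies flowering repressors, had 0.65. The highest was GF14C, a 14-3-3 protein that binds Hd3a, with 14497 against 7923 (0.92). Ehd1 and Ghd7 were not analysed here under those names.

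DTH8 is a B subunit that works in a complex with C subunits, so B and C subunit genes of nuclear factor Y were read. Of 6 measured, 5 were below 0 under each of the 4 scalings, which reuse the same arrays. Of all 14693 genes measured, 6389 were below 0 in the main setting. The values of the 6 ran from -0.87 to 0.16. Apart from Hd3a and DTH8, the lowest of the flowering-time genes was NFYC4, a C subunit gene, with 514 in yellow leaf tips against 991 in green leaves (-0.87). NFYB8, a B subunit gene like DTH8, read 902 and 1554 (-0.72) on a probe set whose name marks possible cross-hybridization. NFYB10, NFYB3 and NFYB4 were at -0.33, -0.13 and -0.12, and NFYB2 at 0.16. NFYB1 read 59.4 in yellow leaf tips against 21.6 in green leaves, the green signal within the bacterial controls, and did not pass the filter. DTH8 at -1.33 was lower than each of the 6 measured, but the difference between it and the others was not tested.

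The MADS genes that act in floral transition were read as a further group of flowering-time genes. MADS14 and MADS15, which Hd3a switches on at the shoot apex, were dim. Of the 4 probe sets of MADS14, 3 lay within the bacterial controls on both arrays. The kept probe set, which may cross-hybridize, read 113 in yellow leaf tips against 195 in green leaves (-0.64). Both signals were below the highest reporter controls of their arrays, 153 and 241. All 4 probe sets of MADS15 lay within the bacterial controls on both arrays, so no difference can be read for it. MADS18, a relative of both, read 1262 and 2220 (-0.75). MADS50 and MADS56, counterparts of the Arabidopsis flowering gene SOC1, had -0.46 and -0.52. The repressor-type genes MADS22, MADS47 and MADS55 were within 0.13 of 0. In all, 6 of 7 measured genes of this kind were below 0 and none by 2-fold, where 6389 of all 14693 genes measured were below 0. MADS22 and MADS55 counted among the 6 at only -0.02 and -0.08, and MADS14 counted on its dim kept probe set. The count was 6 under each of the 4 scalings, which reuse the same arrays. The measured flowering-time genes outside this group and the nuclear factor Y group, Hd1, Ehd3, Ehd4, Hd16 and GF14C, were all above 0. Of all 14693 genes measured, 8303 were above 0. Hd1 and Ehd3, both at 0.12, were below the median of 0.19 of the spiked hybridization controls. Ehd3 fell to -0.09 in its lowest setting. The plan did not split the flowering-time list into these groups, and over the whole list 11 of 18 were below 0.

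**Figure D4:**
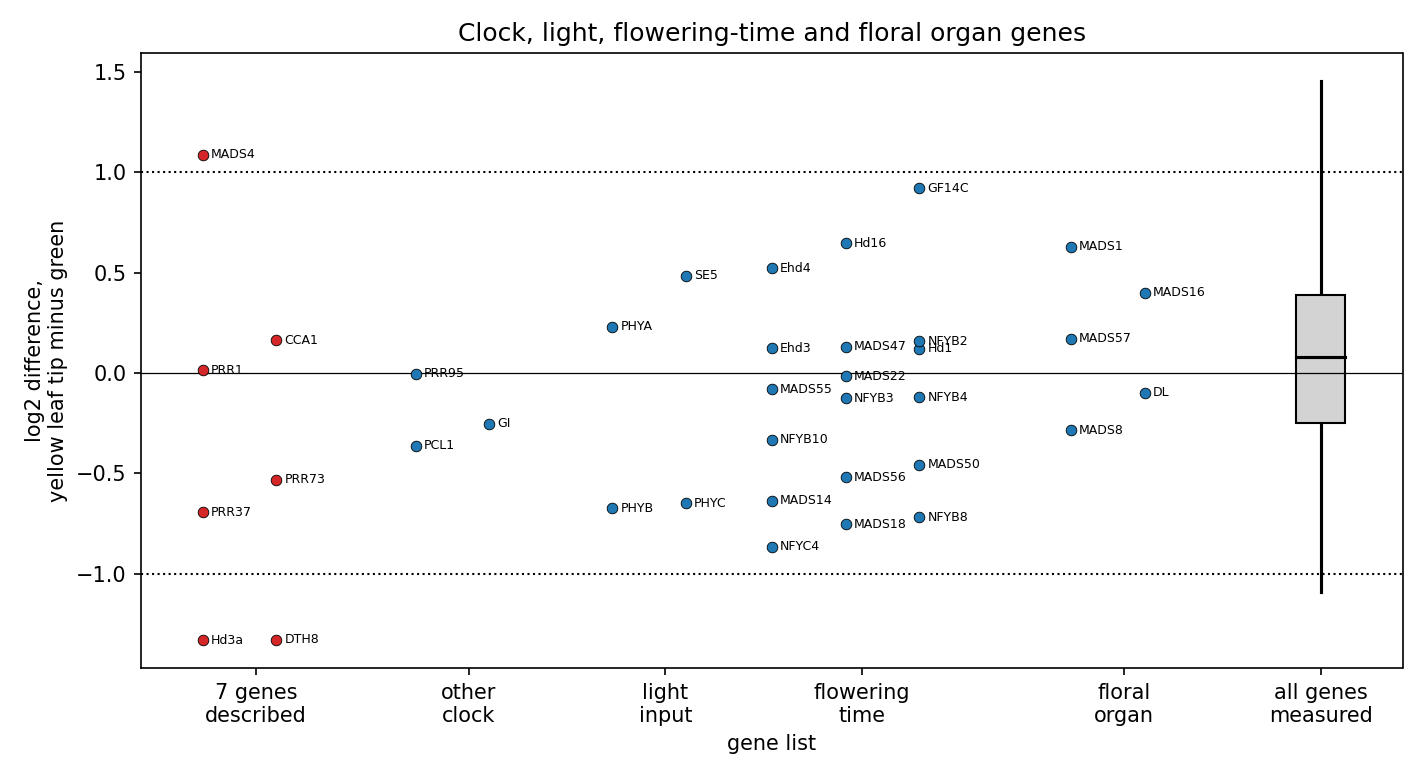
Log2 difference, yellow leaf tip minus green, of the 7 genes (red), of the other clock, light, flowering-time and floral organ genes that passed the filter (blue), and of all 14693 genes measured (box: middle 50%, line: median 0.08, whisker: middle 95%). All blue points lie between the dotted 2-fold lines, from -0.87 for NFYC4 to 0.92 for GF14C.

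MADS4 was set beside the other floral organ genes, of which 17 had 1 probe set each. On 9 of the 17 probe sets the signal lay within the bacterial controls on both arrays, and 5 passed the filter. The close relative MADS2, the other PISTILLATA-type gene, read 67.4 in yellow leaf tips against 45.5 in green leaves and did not pass the filter. MADS16, the class B gene whose protein pairs with that of MADS4, was well above the controls, at 1841 and 1440 (0.40). MADS1 had the highest difference of the list, 0.63, with a green signal of 74.4 that bacterial controls also reached, and MADS8 the lowest, -0.29. None of the 5 was called. The 10 floral markers summed to 2394 in yellow leaf tips against 1948 in green leaves, most of it from MADS16. MADS3, MADS6, MADS7 and MADS13 were within the bacterial controls on both arrays, and the part of floral tissue in the MADS4 signal was not tested. Of the shoot meristem markers with a probe set, OSH1 was within the controls on both arrays, while FON1 read 184 and 495 (-1.28) and LOG 2743 and 5719, at the 2-fold line.

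Lines from a cross differ along their chromosomes, so the genes next to each of the 7 were read too. The 2 nearest measured genes on each side, 28 in all and up to 11 genes away, had a median difference of 0.09, with 1 called higher and 1 lower. Over all genes measured the median was 0.08, with 5.57% called higher and 3.17% lower, so these counts are near that share. Next to Hd3a the 4 neighbours ran from 0.03 to 0.51, all above 0, whereas Hd3a itself was at -1.33. The neighbours of DTH8 ran from -0.53 to 0.15. Both called neighbours lie beside MADS4: LOC9267502, 3 genes before it, read 1063 in yellow leaf tips against 531 in green leaves (1.02), and LOC4338844, 2 genes after it, read 467 and 1332 (-1.42). The part of chromosome position in these values was not tested.

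By the size of the difference alone, which is all that 2 arrays allow as a measure of likeness, the named genes nearest to DTH8 among 2045 were PMEI28 (-1.31) and CASPL1U2 (-1.36). None is given for Hd3a and MADS4, whose differences have 1 signal at background and a size set by the pseudocount.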

How the data were processed

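Total RNA was isolated with an RNeasy kit and about 10 µg was labelled as biotinylated cRNA, per the labels' protocols. The authors deposited 1 signal intensity per probe set and array on a linear scale. The sources used here do not name the software or the scaling. Without the 2% of values at either end, the deposited intensity of both arrays averages 500.1.

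From these, 187 control probe sets (123 chip controls and 64 reporter genes) were left out, which left 57194. The pseudocount was the 25th percentile of all values and the filter the median of the mean signals. The log2 difference was centred by a shift of -0.05. A gene's value is the mean over its kept probe sets. Genes were named through the platform annotation and the RefSeq gene table of ASM3414082v1, used for names and gene order only. All 17905 single genes were found there.

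Named were the 7 members, the genes called and the extremes in each list of clock, light, flowering-time and floral organ genes, and a fixed set of pathway genes. Neighbours and other list genes were named after their values were seen. The members and lists were chosen with earlier results of these data known. Alternatives changed the centring, scaling, pseudocount, filter and choice of probe sets. Python 3.11.15, pandas 2.3.3 and statsmodels 0.14.6 were used, and the calculation was tested on simulated data.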

Additional observations from a re-analysis of the deposited data

How the results depend on the processing

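With a pseudocount at the 50th percentile, 1 of the 7 genes was called in place of 3, and 1954 rice probe sets in place of 3460. With the filter at the 75th percentile, Hd3a and MADS4 were no longer measured, and 1 of the 5 genes left and 1011 probe sets were called. At a log2 difference of 2, 0 of the 7 genes and 572 probe sets were called. Without a filter, 10782 probe sets were called, and of the other clock and flowering genes 1 was called in place of 0: MADS14, at -1.24 on 4 probe sets, 3 of them within the bacterial controls. After loess, 2 of the 7 genes were called, and the higher share of all called probe sets was 59.3% in place of 48.1%. No value of the 7 genes moved by more than the spread between probe sets of 1 gene at its signal level. Without probe sets whose names end in _x_at, _s_at or _a_at, CCA1 and PRR73 were not measured. Leaving out only those ending in _x_at or _s_at, chosen after seeing the data, called 3 of the 7 genes. No paired analysis was possible because each group had 1 array. Signals near the bacterial and reporter controls limit Hd3a and MADS4, and with 1 array a group no spread between plants is known.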
